A study of Mus musculus with 16 samples.

Results

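The mRNAs of 9 genes that act downstream of, or alongside, the core circadian clock were followed through lists of m6A peaks from mouse liver. The genes were Dbp, Tef, Hlf, Nfil3, Bhlhe40, Bhlhe41, Rora, Usp2 and Ciart, and a peak belonged to a gene when the list gave it that gene name. Peaks were found for 7 of the 9 genes, of 7693 genes with a peak in any mouse, and made up 91 of 77183 peaks. The set was chosen by its presence pattern, since Hlf, Bhlhe41 and Usp2 are found in fewer mice on the high-fructose diet, so every difference between the diets in these genes is given as a description and with no test.

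Male C57BL/6J mice, aged 10 to 11 weeks before the diets, gave liver after 2 weeks on a high-fructose diet (HFrD), with 70% of its energy from carbohydrate, 10% from fat and 20% from protein, or on a normal diet (ND). The labels name no engineered allele, and each of the 16 libraries was either immunoprecipitated RNA (4 per diet) or its input (4 per diet). RNA fragments that carry N6-methyladenosine (m6A), a methyl mark on adenosines of mRNA, were enriched with an antibody and sequenced (MeRIP-seq), and the authors called peaks in each mouse. HFrD mice are numbered 1, 2, 5 and 7 in the titles, and ND mice 1, 3, 6 and 7. No source used here gives the hour of tissue collection, on which the level of these rhythmic transcripts depends.

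The core clock is a feedback loop of transcription factors, and its output runs through further factors whose own transcripts cycle over the day. Dbp, Tef and Hlf encode the PAR bZIP activators, which bind D-box elements and drive rhythmic genes of detoxification and metabolism in the liver, and Nfil3 encodes a repressor that competes for the same elements. Bhlhe40 and Bhlhe41 (DEC1 and DEC2) encode bHLH repressors that act on E-box elements, Rora a nuclear receptor that activates Arntl, Usp2 a deubiquitinase with targets among clock proteins, and Ciart (CHRONO) a repressor of the CLOCK-BMAL1 activator. Methylation by m6A takes place mostly at an adenosine within the DRACH consensus (A, G or T, then A or G, then A, C, and last A, C or T), of which GGAC is a common form, and the mark can change the splicing, translation and decay of an mRNA.

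Overlapping peaks of the 8 lists were merged within each gene into 18 regions for the 7 genes, of 17574 regions in all. Short windows around the GGACT, or else the GGAC, nearest to the middle of a region are shown for the regions in which the paired repressors Bhlhe40 and Bhlhe41 can be set side by side, for Hlf exon 2 and Usp2 exon 2, which were found in fewer HFrD mice, and for Nfil3, whose single region was found in every mouse. The sequences were read from GRCm38, the assembly of mm10, 5′ to 3′ on the transcript strand, with the motif in capitals.
Bhlhe40 exon 1, 5′ UTR, chr6:108660699-108660726, plus strand: cagaagccgtggGGACacccggccatgc
Bhlhe41 exon 1, 5′ UTR, chr6:145865291-145865318, minus strand: ccacagattacaGGACagaaacctccaa
Bhlhe40 exon 5, 3′ UTR, chr6:108665569-108665597, plus strand: tgacagactggaGGACTgtagcacatctc
Bhlhe41 exon 5, coding, chr6:145863334-145863362, minus strand: ggagccacccggGGACTcgtcgcctgcgc
Hlf exon 2, coding, chr11:90387963-90387991, minus strand: gctggaatacatGGACTtggaggaattcc
Usp2 exon 2, coding, chr9:44075710-44075738, plus strand: ccctcgggcagtGGACTcaacggaggcag
Nfil3 exon 2, coding, chr13:52968401-52968429, minus strand: tgtctactttcaGGACTaccagacatcca
Rora differed in that 2 of its constant peaks covered short coding exons whole and without any GGAC, so these exons are shown entire, with every DRACH match in capitals. Exon 3 encodes part of the DNA-binding domain of the receptor.
Rora exon 3, coding, whole region, chr9:69348132-69348217, plus strand: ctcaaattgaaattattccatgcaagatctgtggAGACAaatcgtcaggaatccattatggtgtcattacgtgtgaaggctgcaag
Rora exon 6, coding, whole region, chr9:69371215-69371336, plus strand: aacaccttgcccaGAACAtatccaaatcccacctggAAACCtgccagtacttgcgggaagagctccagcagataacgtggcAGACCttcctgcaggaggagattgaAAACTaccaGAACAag

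The motif GGAC was searched on the transcript strand within exons, and occurred in 12 of the 18 regions (66.7%), beside 69.5% of the 16852 regions of all genes that could be placed on a gene model. GGACT, which contains GGAC, occurred in 8 regions (44.4%), beside 35.7% of all regions. A DRACH match was present in all 18 regions, beside 95.2% of all regions, so its presence sets no region apart. Hlf exon 2 held 4 GGAC and 1 GGACT, where 85.3% of the 2021 regions of similar length (within 25%) held a GGAC. Bhlhe41 exon 1 held 3 GGAC, where the median of 2145 regions of similar length was 2. Usp2 exon 2 held 5 GGAC and 4 GGACT, where 65.8% of the 1996 regions of similar length held a GGACT. The Tef-201 region, found in every mouse, held 0 GGAC, where 76.9% of 2334 similar regions held at least 1. Rora exon 3 held 0 GGAC and 1 DRACH match, where 31% of 1760 similar regions held a GGAC and 84.8% a DRACH match. Such matches describe letters in a window and place no methylated adenosine.

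Members with a peak numbered 5, 5, 5 and 4 of 9 in HFrD mice 1, 2, 5 and 7, against 6, 7, 7 and 7 of 9 in ND mice 1, 3, 6 and 7. The mean was 4.75 ± 0.5 genes in HFrD and 6.75 ± 0.5 genes in ND livers (SD, n = 4 each), and the groups did not overlap. As a share of the 9 genes this was 52.8% ± 5.56 in HFrD and 75% ± 5.56 in ND livers, a difference of -22.2 percentage points (HFrD minus ND). Over the 7693 genes with a peak in any list, the share was 64.5% ± 4.16 in HFrD and 70.2% ± 3.87 in ND livers, a difference of -5.72 percentage points. The bases are unlike, since the 9 genes include Dbp and Ciart, which had no peak in any list. The levels of the 2 shares are therefore not compared. Hlf, Bhlhe41 and Usp2 were found in fewer HFrD than ND mice, 0 members were found in more, and 4 members (Tef, Nfil3, Bhlhe40 and Rora) were found in all 8 mice. Among all genes 31.8% were found in fewer HFrD mice and 17.7% in more, and 39.6% were found in all 8. Because the set was selected on this contrast, nothing is read from its count against that background.

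**Figure D1:**
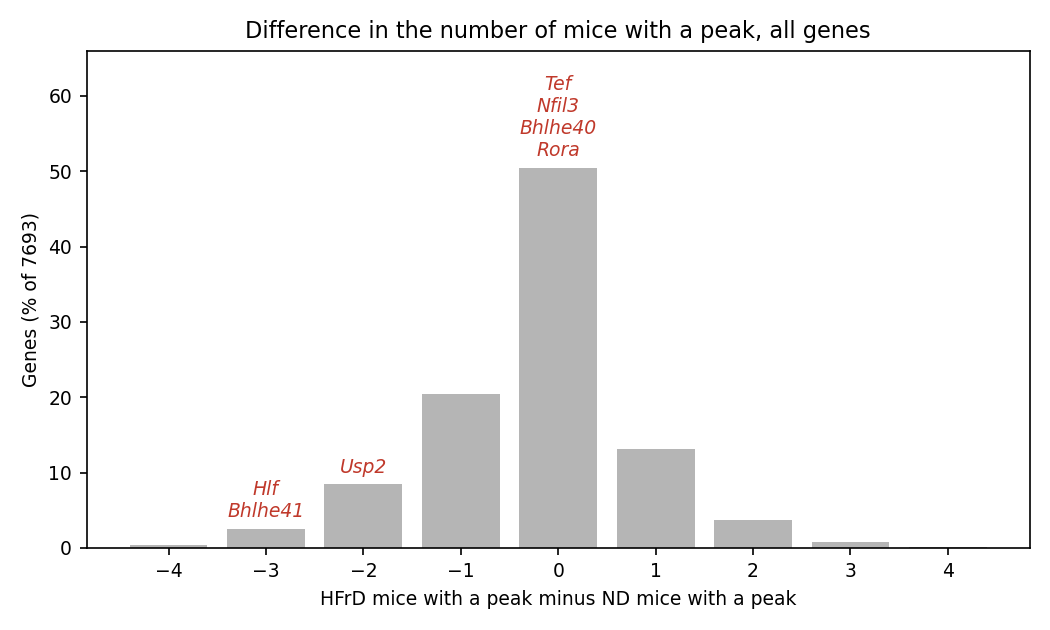
Number of HFrD mice minus number of ND mice whose list held a peak of a gene (x axis), as a percentage of the 7693 genes with a peak (y axis), with the 7 members named above the bar they belong to. Tef, Nfil3, Bhlhe40 and Rora sit at 0, Usp2 at -2, and Hlf and Bhlhe41 at -3, a bar that holds 2.51% of all genes.

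Lists held 8055 to 10093 peaks in HFrD mice and 8959 to 11517 in ND mice, and the reads behind them were not analysed here, so depth is unknown. At most 2 peaks had the same position, score and fold enrichment in any pair of lists, although many had the same position. Of 10 hepatocyte markers 6 had a peak in at least 1 list and 0 had one in all 8, and Alb, the most typical of them, had none. Hepatocyte markers with a peak numbered 2 to 3 per HFrD list and 2 to 4 per ND list. A peak list records methylation that was detected and not transcript level, so it offers no check of the tissue label. Among markers of other liver cells, 2 to 4 of 6 Kupffer cell markers had a peak per HFrD list and 2 to 3 per ND list, and 3 to 4 of 5 endothelial markers in either diet. Among the Kupffer cell markers, named after their values were seen, Marco, a scavenger receptor, was found in 4 HFrD and 0 ND mice, and Cd5l in 1 HFrD and 3 ND mice. The others with a peak were Vsig4, in 4 HFrD and 3 ND mice, and Clec4f, in 3 HFrD and 4 ND mice. Stellate cell markers numbered 2 of 5 per HFrD list and 2 to 3 per ND list, cholangiocyte markers 1 of 5 per HFrD list and 1 to 2 per ND list, and lymphocyte and neutrophil markers 2 to 3 of 5 per HFrD list and 2 per ND list. In whole liver, fewer cells of a type and less RNA per cell cannot be told apart, and whether missing peaks go with lower transcript abundance or with a change in cell types was not tested.

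Peaks of the 7 genes numbered 9, 11, 12 and 9 in the HFrD lists, against 10, 12, 14 and 14 in the ND lists. The mean was 10.2 ± 1.5 peaks in HFrD and 12.5 ± 1.91 in ND livers (SD, n = 4 each), and the ranges overlapped. Per 1000 peaks of the list, the members had 1.12 ± 0.06 in HFrD and 1.23 ± 0.0946 in ND livers. By region, 7 of the 18 were found in all 8 mice (38.9%, beside 24.7% of all regions). Of the same 18 regions, 6 were found in fewer HFrD mice, 4 in more, and 8 in equal numbers, and these 8 include the 7 found in all mice. Over all regions 38.3% were found in fewer HFrD mice and 23.5% in more. A deficit of at least 3 HFrD mice was seen for 3 member regions, in Bhlhe41, Hlf and Usp2, where 2.87% of all regions and 2.87% of all genes had one. The set was chosen by the presence of these same genes, so nothing is read from this count against that background. At a score of at least 100 the Usp2 region was left in 0 HFrD and 0 ND mice.

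**Figure D2:**
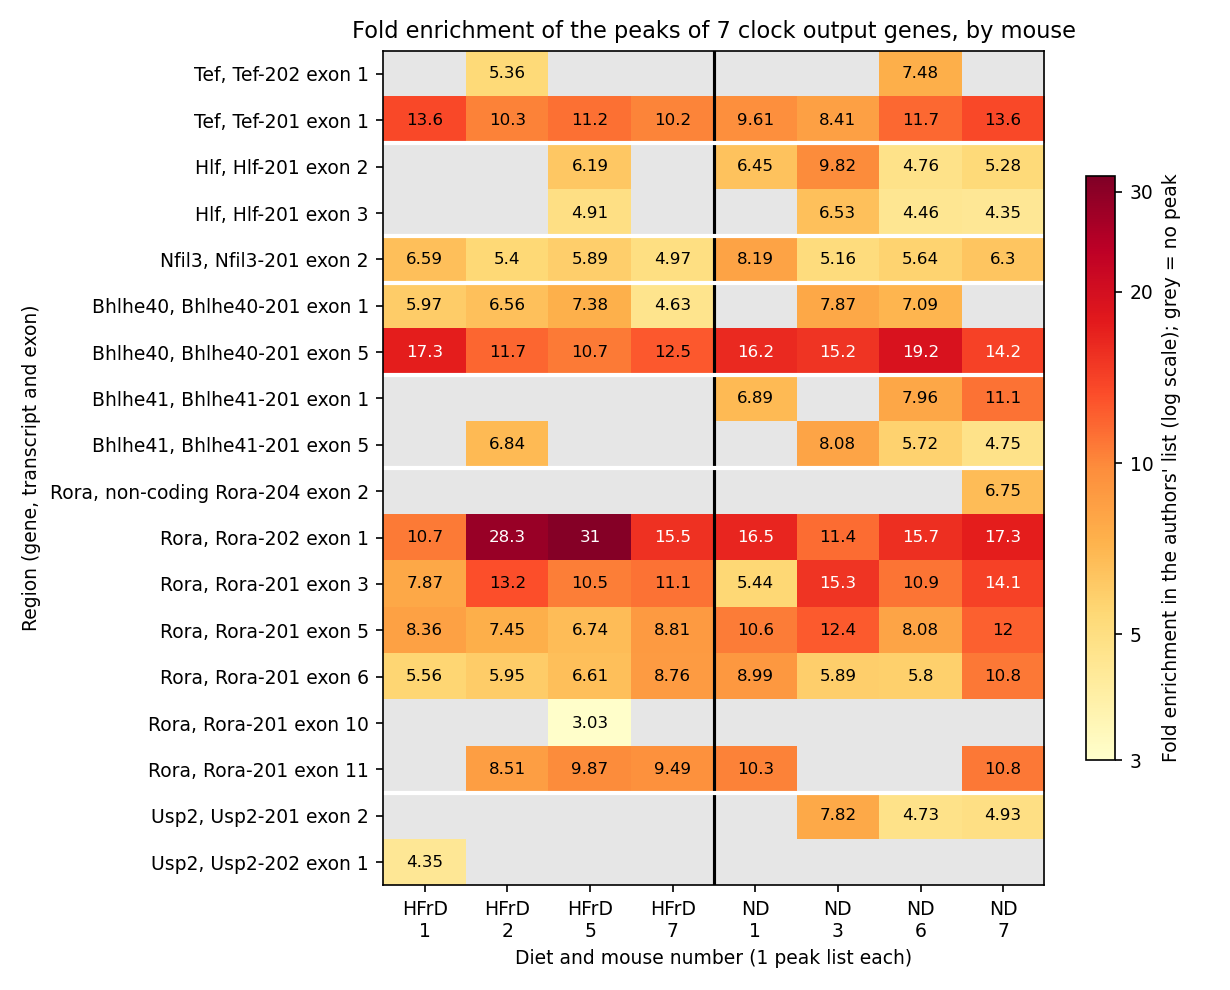
Deposited fold enrichment of the peak for each of the 18 regions (rows, by gene, transcript and exon) in each mouse (columns, HFrD left of the black line, ND right of it), with grey where the list held no peak. The rows of Tef-201 exon 1, Nfil3 exon 2, Bhlhe40 exon 5 and Rora exons 3, 5 and 6 and Rora-202 exon 1 are filled in all 8 mice, while those of Hlf, Bhlhe41 and Usp2 are mostly grey in HFrD.

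Among the PAR bZIP activators, Tef had a peak in every mouse, Hlf mainly in ND mice, and no peak was listed under Dbp. The constant Tef region was the first exon of Tef-201 (chr15:81811414-81811720), which holds 156 nt of 5′ UTR and the first 151 coding nt. Its fold enrichment, the authors' ratio of immunoprecipitated to background signal at a peak, was 13.6, 10.3, 11.2 and 10.2 in HFrD mice 1, 2, 5 and 7, against 9.61, 8.41, 11.7 and 13.6 in ND mice 1, 3, 6 and 7. The ranges overlapped and the medians were 10.8 in HFrD and 10.6 in ND livers. Each list has its own scale, so ranges and medians of fold enrichment across mice, here and below, describe the deposited values only. Part of the alternative first exon of Tef-202 (chr15:81802633-81802886) had a peak in 1 mouse of each diet, HFrD mouse 2 at 5.36-fold and ND mouse 6 at 7.48-fold.

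Peaks of Hlf were present in 1 HFrD mouse, against 4 of 4 ND mice. The region at exon 2 of Hlf-201 (chr11:90387786-90388207), of which 336 of 422 nt are coding in that transcript and the rest lies outside it, had a fold enrichment of 6.19 in HFrD mouse 5 and no peak in HFrD mice 1, 2 and 7, against 6.45, 9.82, 4.76 and 5.28 in ND mice 1, 3, 6 and 7. The value of the lone HFrD mouse lay inside the ND range. The region at exon 3 (chr11:90345559-90345978), with 221 of 420 nt coding in Hlf-201, had 4.91 in HFrD mouse 5, against 6.53, 4.46 and 4.35 in ND mice 3, 6 and 7, with no peak in ND mouse 1. The same HFrD mouse thus held both regions, whose exons adjoin each other in spliced Hlf-201. Within their own lists, where all peaks were ranked by score, the best Hlf peak stood at percentile 31.1 in HFrD mouse 5 and between 40.5 and 78.8 in the ND mice. The score grows with minus log10 of the p-value that MACS gave the peak, and starts at 50 in these lists. The best Hlf score in HFrD mouse 5 was 99.1, just short of 100. At a score of at least 100, Hlf was left in 0 HFrD and 4 ND mice. With fold enrichments of 5 or more only, it was left in 1 HFrD and 3 ND mice.

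The absence of a peak under Dbp has a limit set by its neighbour. Peaks given to Sphk2, which encodes a sphingosine kinase, overlapped the end of Dbp in 3 HFrD and 3 ND mice, with fold enrichments of 7.01 to 10.8. The outer limits of these peaks, taken over all lists, covered the last 741 bp of Dbp (chr7:45709463-45710203). The overlap in each single mouse is not given here. The lists carry no strand, so the gene from which these fragments came cannot be told apart.

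Nfil3, the repressor at D-box elements, had 1 peak in every mouse. The region (chr13:52967209-52969021) was exon 2 of Nfil3-201, which holds the entire coding sequence of 1386 nt with 155 nt of 5′ UTR and 272 nt of 3′ UTR. Fold enrichment was 6.59, 5.4, 5.89 and 4.97 in HFrD mice 1, 2, 5 and 7, against 8.19, 5.16, 5.64 and 6.3 in ND mice 1, 3, 6 and 7. The ranges overlapped, with medians of 5.64 in HFrD and 5.97 in ND livers. In score rank the peak stood at percentiles 62.2, 59.8 and 56.7 in HFrD mice 1, 2 and 5 and at 21.1 in HFrD mouse 7, against 53 to 74.5 in ND mice. The peak of HFrD mouse 7 had a fold enrichment under 5 and a score under 100, so at either limit Nfil3 was found in 3 HFrD and 4 ND mice.

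**Figure D3:**
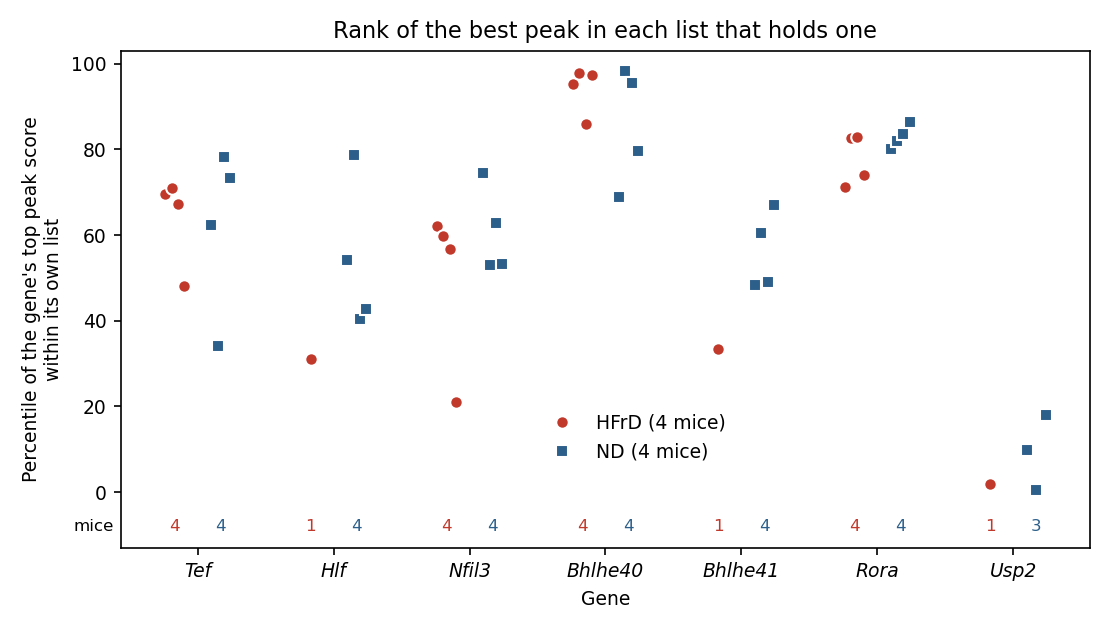
Percentile of the gene's best peak score among all peaks of the same list (y axis), for each gene (x axis) in each HFrD mouse (red circles) and ND mouse (blue squares) that held a peak, with the number of such mice under each group. Bhlhe40 and Rora lie at 68.8 or above in all 8 mice, Usp2 at 18.1 or below in the 4 mice that held it, and the lone HFrD values of Hlf and Bhlhe41 are 31.1 and 33.5.

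Bhlhe40 and Bhlhe41 encode closely related repressors and had peaks in the same exons, exon 1 with the start codon and exon 5 with the stop codon. The sets of mice differed but were not separate. Every mouse with a Bhlhe41 exon 5 peak also had the Bhlhe40 one, and ND mouse 6 had exon 1 peaks of both genes. Bhlhe40 exon 5 (chr6:108664479-108666910) covers the last 851 coding nt and 1581 nt of 3′ UTR and was found in all 8 mice. Its fold enrichment was 17.3, 11.7, 10.7 and 12.5 in HFrD mice 1, 2, 5 and 7, against 16.2, 15.2, 19.2 and 14.2 in ND mice 1, 3, 6 and 7. HFrD mice 2, 5 and 7 lay below every ND mouse and HFrD mouse 1 lay inside the ND range, so the groups overlapped. Its score ranked at percentiles 95.3, 97.8, 62.4 and 97.4 in HFrD mice 1, 2, 5 and 7, against 68.8, 98.2, 95.4 and 79.6 in ND mice 1, 3, 6 and 7, which is a different order of mice from that of the fold enrichment. The median percentile was 96.3 in HFrD and 87.5 in ND livers. The median fold enrichment went the other way, at 12.1 in HFrD and 15.7 in ND livers. The highest score percentile of any member, 98.2, was that of this region in ND mouse 3. Its score there, 3100, was the same as in HFrD mouse 2, at percentile 97.8, so these ranks differ by list and not by score.

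The first exon of Bhlhe40 (chr6:108660629-108660992) had a peak in 4 HFrD and 2 ND mice. Fold enrichment was 5.97, 6.56, 7.38 and 4.63 in HFrD mice 1, 2, 5 and 7, against 7.87 and 7.09 in ND mice 3 and 6, with no peak in ND mice 1 and 7. Scores ran from 59.9 to 823 in HFrD mice, against 229.8 and 833 in ND mice, and that of HFrD mouse 2 was close to the lowest value of the lists.

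Bhlhe41 exon 1 (chr6:145865206-145865558), which like that of Bhlhe40 joins the 5′ UTR to the first coding bases, had a peak in 0 HFrD and 3 ND mice. Fold enrichment was 6.89, 7.96 and 11.1 in ND mice 1, 6 and 7. The region at Bhlhe41 exon 5 (chr6:145861696-145863867) had 6.84 in HFrD mouse 2, against 8.08, 5.72 and 4.75 in ND mice 3, 6 and 7. No single region of Bhlhe41 was found in all ND mice, and its presence in 4 of 4 ND lists comes from exon 1 in ND mouse 1 and exon 5 in ND mouse 3, and from both in ND mice 6 and 7. Side by side, the first exon had a peak in 4 HFrD and 2 ND mice for Bhlhe40, and in 0 HFrD and 3 ND mice for Bhlhe41. At a score of at least 100, a limit applied to single regions after seeing the data, exon 1 of Bhlhe40 was left in 2 HFrD and 2 ND mice, while that of Bhlhe41 was still in 0 HFrD and 3 ND mice. Bhlhe41 exon 5 was left in 1 HFrD and 1 ND mice at that score, and also with lists cut to the same length.

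Rora carried the most peaks of the set, 39 of the 91, in 7 regions of which 4 were found in all 8 mice. The first exon of Rora-202 (chr9:69289682-69290048), almost entirely 5′ UTR with 28 coding nt, had fold enrichments of 10.7, 28.3, 31 and 15.5 in HFrD mice 1, 2, 5 and 7, against 16.5, 11.4, 15.7 and 17.3 in ND mice 1, 3, 6 and 7. HFrD mice 2 and 5 had the highest values of any member region and lay above every ND mouse, while HFrD mouse 1 lay below them all, so the groups overlapped. Score ranks did not follow this order, with percentiles of 68.4 to 82.8 in HFrD and 64.9 to 86.5 in ND mice.

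The 86 bp coding exon 3 of Rora-201 (chr9:69348132-69348217), shown above, was covered whole in every mouse, with fold enrichments of 7.87, 13.2, 10.5 and 11.1 in HFrD mice 1, 2, 5 and 7, against 5.44, 15.3, 10.9 and 14.1 in ND mice 1, 3, 6 and 7. Exon 5 (chr9:69364166-69364561), 396 coding nt, had 8.36, 7.45, 6.74 and 8.81 in HFrD mice 1, 2, 5 and 7, against 10.6, 12.4, 8.08 and 12 in ND mice 1, 3, 6 and 7. The medians of exon 5 were 7.91 in HFrD and 11.3 in ND livers, and ND mouse 6 alone lay within the HFrD range. In score percentile within the lists, the medians of exon 5 were 74.5 in HFrD and 81 in ND livers, with overlapping ranges. Exon 6 (chr9:69371215-69371336), 122 coding nt, had 5.56, 5.95, 6.61 and 8.76 in HFrD mice 1, 2, 5 and 7, against 8.99, 5.89, 5.8 and 10.8 in ND mice 1, 3, 6 and 7. All 3 of these exons had overlapping ranges between the diets.

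Rora also had peaks in part of the mice. A region of the last exon (chr9:69378797-69382132), which joins the end of the coding sequence to 3174 nt of 3′ UTR, had 8.51, 9.87 and 9.49 in HFrD mice 2, 5 and 7, against 10.3 and 10.8 in ND mice 1 and 7. Exon 10 had a peak in HFrD mouse 5 alone, with a fold enrichment of 3.03, the lowest of any member peak, and an exon of the non-coding transcript Rora-204 in ND mouse 7 alone, with 6.75.

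Usp2 had a peak in 1 HFrD and 3 ND mice, and no region of it was shared between the diets. Exon 2 of Usp2-201 (chr9:44075366-44076222), which holds the start codon and 816 coding nt, had fold enrichments of 7.82, 4.73 and 4.93 in ND mice 3, 6 and 7. HFrD mouse 1 instead had a peak over the first exon of Usp2-202 (chr9:44084920-44085335), with a fold enrichment of 4.35. The scores were 51.6 in HFrD mouse 1, against 61.7, 50.6 and 80.8 in ND mice 3, 6 and 7, all near the lowest value of 50 that the lists admit. At a score of at least 100, or with every list shortened to its 8055 best peaks, Usp2 was found in 0 HFrD and 0 ND mice, so its difference rests on peaks just inside the limit of the lists. Ciart had no peak in any list.

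**Figure D4:**
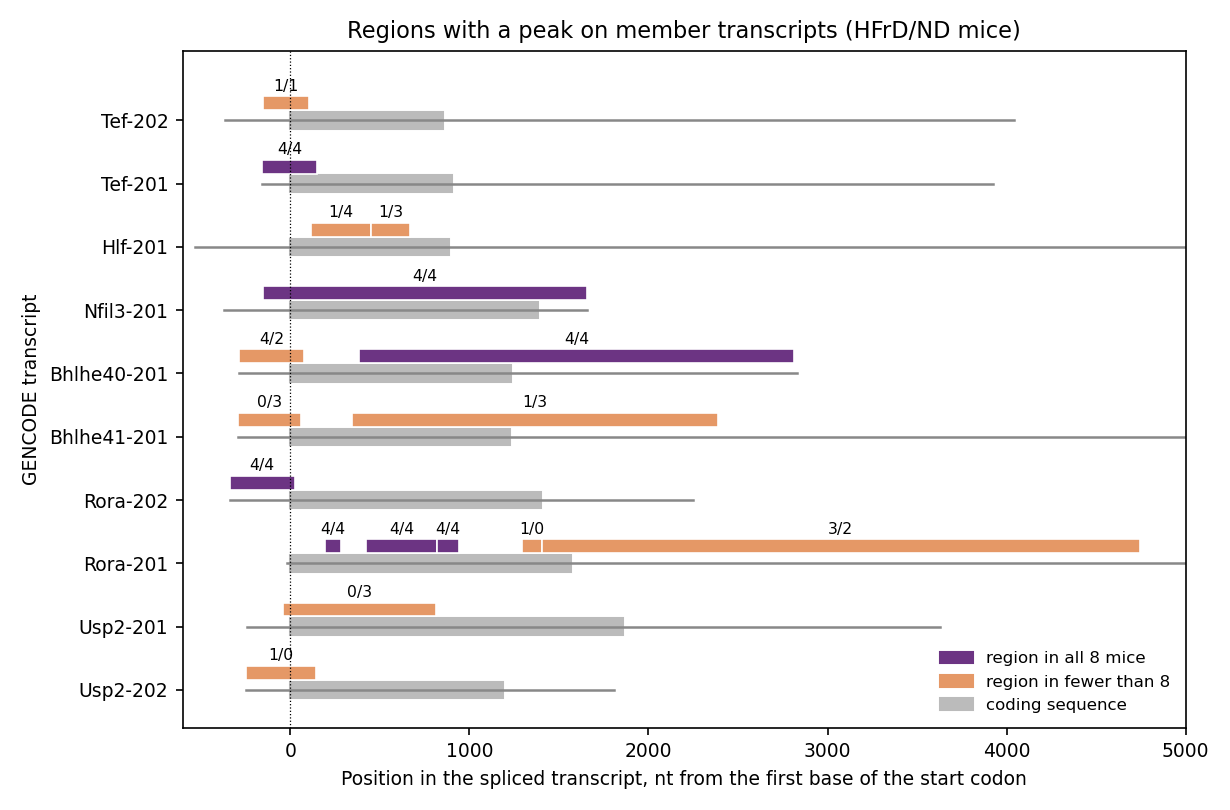
Position of the member regions (coloured bars) on spliced GENCODE transcripts (grey lines, coding sequence as grey boxes), in nt from the first base of the start codon and drawn up to 5000 nt, with the number of HFrD mice and of ND mice beside each bar as HFrD/ND. Regions in all 8 mice (purple) lie over the start codon in Tef-201, Nfil3-201 and Rora-202, over coding exons 3, 5 and 6 of Rora-201 and over the 3′ part of Bhlhe40-201, and the parts of the Hlf and Bhlhe41 regions outside the transcript shown are not drawn.

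By position on the transcript, a start codon lay in 8 of the 18 regions (44.4%), in 6 of the 7 genes with a peak, beside 23% of all regions. Among regions found in all 8 mice it was 3 of 7 (42.9%) for the members, beside 27.4% for all genes. A stop codon lay in 5 of the 18 regions (27.8%), beside 22.8% of all regions. Codons of every protein-coding transcript of a gene were counted here, and the region at Hlf exon 3 holds the stop codon of a shorter transcript and not that of Hlf-201. These peaks follow exons, since 63.7% of the member peaks and 63.2% of all peaks began and ended exactly at exon ends, so a position within an exon cannot be read from them. Member regions had a median of 382 exonic nt, beside 255 nt for all regions, and a longer region has more chance to hold any feature.

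Around the members stand the core clock and the genes that PAR bZIP factors act on. Of 17 core clock genes 13 had a peak, 5 in fewer HFrD mice, 1 in more and 7 in equal numbers, and none differed by more than 1 mouse. Shares over all genes were 31.8% in fewer and 17.7% in more, as above. Of 12 known or likely targets of the PAR bZIP factors 8 had a peak, 4 in fewer HFrD mice, 1 in more and 3 in equal numbers. Ppara, which encodes a fatty acid sensing receptor, was found in 1 HFrD and 3 ND mice, and Acot4, an acyl-CoA thioesterase, also in 1 HFrD and 3 ND mice. Its paralogue Acot3 was found in 4 HFrD and 2 ND mice, and reads of such similar genes may be split between them.

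Presence in 1 HFrD and 4 ND mice, the makeup of Hlf and Bhlhe41, was held by 97 of the 488 genes found in 5 lists (19.9%), and the reverse, 4 HFrD and 1 ND mice, by 28 (5.74%). Exactly the mice of Hlf were shared by 35 other genes, led by median score percentile by Il11ra1 (83.1), Hist2h3c1 (74) and Fam53b (60.2), beside 42.6 for Hlf. The mice of Bhlhe41 were shared by 28 genes, led by Chchd10 (91.5), Ckap5 (82.4) and Eppk1 (82), beside 49.1 for Bhlhe41. Those of Usp2 were shared by 10 genes, led by Gm9845 (65), Triap1 (53.6) and Rgs16 (47.4), beside 5.95 for Usp2. Likeness here is identical presence over 8 mice and no more.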

How the data were processed

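Liver RNA of 4 HFrD and 4 ND mice was immunoprecipitated for m6A and sequenced beside its input. The submitters' processing notes name cutadapt 1.9.3, HISAT2 2.0.4 and the build mm10. MACS was run by the authors on every mouse, and peaks over exons of mRNA were kept. Its version and settings were not given in the sources used here. In the deposited lists a score grows with minus log10 of the peak's p-value, from 50 upwards. The deposited fold enrichment is a ratio over background signal. Each list has its own scale, so presence of a peak was the unit of comparison and the mouse the replicate, and scores were ranked within a list. Fold enrichments are given as deposited, with no common scale between mice. Starts were shifted to count from 1.

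Peaks were merged within a gene where they overlapped by 1 bp, and placed on GENCODE M21 transcripts of GRCm38, of which the complete coding transcript with the longest coding sequence was used. Members and gene lists were chosen with earlier results of these data known. The text names all 9 members, the 3 genes of highest median score percentile with the same mice as a member, and listed clock and target genes that differed by at least 2 mice. Alb and the Kupffer cell markers with a peak were named besides, outside this rule. Alternatives were a fold enrichment of at least 3 or 5, a score of 100 or more, lists cut to the same length, omission of every mouse in turn, a reciprocal overlap of 50%, joining over 100 bp, and DRACH or the middle 200 nt for the motif. Python 3.11.15, pandas 2.3.3, numpy 2.4.6, pysam 0.24.0 and matplotlib 3.10.9 were used, and the counting was tested on simulated data.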

Additional observations from a re-analysis of the deposited data

Results flagged for a closer look

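Of 38 groups of 4 mice checked for a value far from the others, 5 held one. The limit used flags about 1 in 20 groups of independent, continuous values. These groups share mice and regions, and tied counts are flagged at a single step, so 5 of 38 is not read as an excess. HFrD mouse 7 had 4 members with a peak where the other HFrD mice had 5, and ND mouse 1 had 6 where the other ND mice had 7, steps of a single gene. The score percentile of Bhlhe40 exon 5 was 62.4 in HFrD mouse 5, below the 95.3 to 97.8 of the other HFrD mice, although its fold enrichment of 10.7 was close to the 11.7 of HFrD mouse 2. The percentile of the Nfil3 peak was 21.1 in HFrD mouse 7, against 56.7 to 62.2 in the other HFrD mice. HFrD mouse 7 was also low for Tef-201 exon 1, at percentile 48.2 against 67.2 to 70.9 in the other HFrD mice, and had the shortest list, of 8055 peaks.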

How the results depend on the processing

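Dbp and Ciart, at 0 under every setting, are left out here. Of 52 values recomputed with other limits on the peaks, 48 were counted as within 1 SD between mice (counts and shares, within 1.5 times) and 4 were not. Ties were not sorted alike. The shift in members detected with lists of the same length equalled its SD of 5.56 percentage points and was counted as within. Usp2 shifted by its SD of 50 percentage points with such lists, and at a score of 100, and was counted as outside. The tally of 48 and 4 therefore depends on how ties fall. All 104 values with a mouse left out stayed within these bounds, as did both ways of merging peaks, and 0 values turned round. Much of this was fixed beforehand. Tef, Nfil3, Bhlhe40 and Rora, found in all 8 mice, can only give 0 with a mouse left out. A limit of 3 removes no member peak, the lowest being 3.03. The bounds are wide, with an SD of 35.4 percentage points for Hlf, so its move from -75 to -100 stayed within them. The set was chosen on this contrast, so the tallies do not bear it out. The difference in members detected was -22.2 percentage points as deposited, -19.4 at a fold enrichment of at least 5, -16.7 with lists cut to the same length, and -25 to -19.4 with each mouse left out. The count of members found in fewer HFrD mice was 2 with lists of the same length and 4 above the limit on fold enrichment of 5, when Nfil3 joined Hlf, Bhlhe41 and Usp2. The share of all genes found in fewer HFrD mice was 25.8% and 32.8% in these settings, against 31.8% as deposited. The difference in mice with an Usp2 peak, -50 percentage points as deposited, was 0 with lists of the same length and also when scores had to reach 100, and that of Nfil3, 0 as deposited, was -25 at a score of at least 100 or a fold enrichment of at least 5. The difference for Bhlhe40 exon 1, 50 percentage points as deposited, was 25 at a fold enrichment of at least 5 or with lists of the same length and 0 when scores had to reach 100, settings added for this exon after seeing the data. Member regions with a motif numbered 66.7% for GGAC and 100% for DRACH. Depth is unknown, so peaks near the score of 50 may appear or vanish with it, and this was not tested. No paired analysis was possible because mice that share a number on both diets are different animals and the values come from no test.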
